A study of Mus musculus with 12 samples.

Results

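The genes of sterol and fatty acid synthesis were followed across 4 mouse genotypes as a list of 39 genes, made up of 18 enzymes of cholesterol synthesis, 5 regulators of the sterol regulatory element binding proteins (SREBPs), 3 cholesterol transport proteins and 13 enzymes of fatty acid and lipid synthesis. A gene entered the comparisons when a probe annotated to its symbol had a detection score above 0.95 (1 minus the detection p value of the array, called above background here) on at least 3 of the 12 arrays. Of the 39 genes, 29 had an annotated probe, and 28 of these passed with 35 probes. These were 10 sterol enzymes with 11 probes, all 5 SREBP regulators with 8, all 3 transport genes with 4, and 10 fatty acid enzymes with 12, out of 7642 named genes that passed in the series. No probe carried the symbol of Hmgcs1, Acat2, Fdft1, Lss, Tm7sf2, Nsdhl, Sc5d, Dhcr7, Acaca or Fasn, which are not analysed here. Srebf1 lay just inside the limit, above it on 3 arrays, and Lpin1 just outside, above it on 2 and equal to it on 1.

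The samples were hypertrophic zones, the layer of a growth plate in which cartilage cells enlarge and make collagen X, cut by hand from 1 proximal tibial growth plate per 2-week-old mouse. ColXN617K mice carry a knock-in p.N617K substitution in collagen X that makes the protein misfold in the endoplasmic reticulum and models Schmid metaphyseal chondrodysplasia. Xbp1CartΔEx2 mice lack exon 2 of Xbp1, a transcription factor of the unfolded protein response, in cells that express Col2a1-Cre. C/X mice carry both changes, with the collagen X allele homozygous, and the wildtype mice carry neither. All animals had a mixed background, their sex is not given in the sources used here, and each genotype had 3 mice with 1 array each. The paper describes the deletion, driven by the Col2a1 promoter, as specific to chondrocytes. Whether other cells in the dissected zone keep Xbp1 was not checked here. The amplified RNA was measured on Illumina whole-genome mouse arrays (MouseWG-6, version 2). Differences are given as log2 of the first genotype over the second with their standard error (SE, n = 3 arrays each), and a gene passed when it differed 2-fold or more with a Benjamini-Hochberg adjusted p of 0.01 or less in limma.

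Cholesterol is built from acetyl-CoA through mevalonate, isoprenoids, squalene and lanosterol, and fatty acids are built from the same precursor and then lengthened by ELOVL enzymes and desaturated by SCD and FADS enzymes. SREBPs are held in the endoplasmic reticulum membrane by SCAP and INSIG proteins when sterols are plentiful, and are carried to the Golgi and cut free by site-1 and site-2 proteases when sterols are scarce. SREBP2, encoded by Srebf2, mainly drives sterol genes, and SREBP1, encoded by Srebf1, mainly drives fatty acid genes. The study asked which consequences of misfolded collagen X need XBP1, and the genes here were compared with the same contrasts.

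RefSeq promoters of 300 bases (250 before the start and 50 after it, build GRCm38.p6) were at hand for 21 of the 28 tested genes. The 5 shown belong to the sterol enzymes and regulators whose levels the results turn on. Capitals mark CCAAT, the box bound by NF-Y beside many SREBP sites, or ATTGG where it lies on the other strand.
Mvk, chr5:114444019-114444318, plus strand: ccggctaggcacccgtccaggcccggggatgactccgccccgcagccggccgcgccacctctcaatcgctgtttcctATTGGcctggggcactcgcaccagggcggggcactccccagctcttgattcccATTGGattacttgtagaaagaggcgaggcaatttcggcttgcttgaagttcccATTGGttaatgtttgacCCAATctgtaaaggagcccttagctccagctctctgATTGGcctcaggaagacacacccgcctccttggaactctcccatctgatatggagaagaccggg
Pmvk, chr3:89454291-89454590, plus strand: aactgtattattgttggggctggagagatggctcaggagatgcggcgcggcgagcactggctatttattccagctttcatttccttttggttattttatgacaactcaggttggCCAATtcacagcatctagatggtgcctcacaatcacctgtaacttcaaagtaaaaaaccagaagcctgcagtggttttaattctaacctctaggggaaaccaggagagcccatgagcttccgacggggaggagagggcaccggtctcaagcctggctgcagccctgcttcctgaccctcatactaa
Hsd17b7, chr1:169969156-169969455, minus strand: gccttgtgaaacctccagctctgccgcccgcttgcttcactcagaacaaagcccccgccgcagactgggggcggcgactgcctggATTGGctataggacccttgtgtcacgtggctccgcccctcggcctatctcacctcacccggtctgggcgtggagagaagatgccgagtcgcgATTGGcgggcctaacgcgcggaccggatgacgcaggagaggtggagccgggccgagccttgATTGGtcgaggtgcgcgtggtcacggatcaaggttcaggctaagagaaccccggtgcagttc
Srebf2, chr15:82147019-82147318, plus strand: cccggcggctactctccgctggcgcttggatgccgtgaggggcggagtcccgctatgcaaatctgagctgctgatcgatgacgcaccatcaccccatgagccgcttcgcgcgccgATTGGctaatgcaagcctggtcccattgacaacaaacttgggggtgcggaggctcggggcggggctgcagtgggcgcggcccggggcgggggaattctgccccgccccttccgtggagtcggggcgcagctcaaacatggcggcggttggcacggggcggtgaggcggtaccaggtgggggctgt
Insig1, chr5:28071162-28071461, plus strand: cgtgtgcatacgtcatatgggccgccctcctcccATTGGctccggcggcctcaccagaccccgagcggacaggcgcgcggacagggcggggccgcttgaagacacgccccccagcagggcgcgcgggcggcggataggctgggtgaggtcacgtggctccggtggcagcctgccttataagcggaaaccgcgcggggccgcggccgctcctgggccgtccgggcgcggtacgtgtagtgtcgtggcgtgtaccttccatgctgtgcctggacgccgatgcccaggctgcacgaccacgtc
The Pmvk promoter is that of the first of 2 starts.

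Mvk held 5 of these boxes and Hsd17b7 held 3, while Pmvk, Srebf2 and Insig1 held 1 each. Searched on both strands, CCAAT was found for 17 of the 21 genes and in 37.4% of 32851 promoters. Here and below a gene counts when the promoter of any of its starts holds the motif, whereas the percentages are of single promoters. The units therefore differ. The sterol response element TCACNCCAC, found in 1.24% of promoters, and its stricter form TCACCCCAC, found in 0.551%, were in no window of the 21 genes. The endoplasmic reticulum stress element, CCAAT then 9 bases and CCACG, was in 0.119% of promoters and likewise in none of the 21. TGATGNAA, a core of ATF4 composite sites, was in the Idi1 and Insig2 windows and in 3.97% of promoters. TTGCATCA, another form of those sites, was in the Insig2 window and in 0.895% of promoters. The stress element contains CCAAT, and the stricter sterol form is contained in the looser one.

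The arrays had 17.1 to 28.4% of probes above background. ColXN617K replicate 3 stood apart from its group (17.1% of probes above background and correlations of 0.867 and 0.886 with the other 2 arrays), and C/X replicate 3 did so to a lesser degree (17.2%, 0.915 and 0.932). The probe for Xbp1 read 11.68, 11.87 and 11.25 in ColXN617K, 10.94, 11.18 and 10.19 in C/X, 10.94, 10.82 and 10.96 in Xbp1CartΔEx2 and 10.49, 11.03 and 10.67 in wildtype, on the log2 scale. Its place relative to exon 2 is not given in the files, so it does not check the deletion. Cartilage markers were high in every group (summed intensity of 7 genes 63010 to 83630 in ColXN617K, 53240 to 67050 in C/X, 78510 to 89860 in Xbp1CartΔEx2 and 81660 to 85510 in wildtype). Col10a1, the defining gene of the zone, read 8.43, 8.48 and 9.78 in ColXN617K, 9.27, 9.33 and 8.35 in C/X, 12.18, 11.16 and 11.7 in Xbp1CartΔEx2 and 11.75, 12.47 and 11.97 in wildtype. It fell in both collagen X mutants against wildtype, as did 6 of the 6 hypertrophic markers tested in ColXN617K and 4 of 6 in C/X. Their summed intensity was 10440 to 18270 in ColXN617K, 24010 to 30380 in C/X, 54840 to 65200 in Xbp1CartΔEx2 and 53340 to 59130 in wildtype. Of 8 endothelial markers 7 fell in each collagen X mutant, with sums of 998.5 to 1190 in ColXN617K, 950.3 to 3425 in C/X, 14740 to 26910 in Xbp1CartΔEx2 and 6272 to 15120 in wildtype. Of 6 osteoclast or macrophage markers 4 fell in ColXN617K and 2 in C/X, with sums of 6680 to 11460 in ColXN617K, 8542 to 23270 in C/X, 35340 to 40590 in Xbp1CartΔEx2 and 26240 to 37600 in wildtype. Of 4 erythroid markers 3 fell in each collagen X mutant and 2 in Xbp1CartΔEx2, with sums of 2112 to 7708 in ColXN617K, 1426 to 2820 in C/X, 4962 to 6151 in Xbp1CartΔEx2 and 16060 to 26600 in wildtype. Against wildtype, 1 of the 7 cartilage markers passed as lower in C/X and 1 of the 8 endothelial markers as higher in Xbp1CartΔEx2. No adipocyte (Lep and Lpl) or bone marker (5 genes) passed against wildtype. In C/X against Xbp1CartΔEx2, 8 of 8 endothelial, 4 of 6 hypertrophic, 4 of 6 osteoclast or macrophage, 2 of 4 erythroid, 2 of 5 bone, 1 of 2 adipocyte and 2 of 7 cartilage markers fell and none rose. Adipocyte sums were 2247 to 2546 in ColXN617K, 2589 to 4434 in C/X, 6553 to 9458 in Xbp1CartΔEx2 and 2173 to 5736 in wildtype, and bone sums were 2475 to 4002 in ColXN617K, 1419 to 2385 in C/X, 6189 to 18640 in Xbp1CartΔEx2 and 2277 to 2773 in wildtype. Cdh5 was not above background on any ColXN617K or C/X array. In these bulk samples fewer cells of a type and less RNA per cell cannot be told apart, and the part of these shifts in the results below was not tested.

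In ColXN617K against wildtype, Mvk and Pmvk, successive kinases of the mevalonate pathway, fell along with Srebf2, while Npc1 (which moves cholesterol out of lysosomes, here by the brighter of its 2 opposed probes) and the delta-5 desaturase Fads1 rose. These were 2 of 28 genes higher and 3 lower, beside 7.45% higher and 7.58% lower among all 7642 genes, so the members' share was near the background. The median difference was 0.01 over the 28 genes and −0.04 over all genes. At an unadjusted p under 0.05, 4 members were higher and 7 lower, beside 1719 higher and 1578 lower of the 7642 genes.

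In C/X against wildtype, Npc1 rose by its brighter probe, while its other probe passed as lower (−1.09, adjusted p = 0.00408), and Mvk and Hsd17b7, the 3-ketosteroid reductase that acts late in cholesterol synthesis, fell. That was 1 of 28 higher and 2 lower, beside 6.29% higher and 5.68% lower among all genes. With the mean of a gene's probes in place of the brightest, Npc1 did not pass there (0.41, adjusted p = 0.0918), which left the 2 lower genes. The median over the members was −0.08, against −0.04 over all genes. In Xbp1CartΔEx2 against wildtype, Npc1 rose by its brighter probe (not by the mean of its probes) and Pmvk fell, 1 of 28 in each direction, beside 1.23% higher and 0.576% lower among all genes. The median was −0.06 over the members and 0 over all genes. The 3 mutant comparisons share the wildtype arrays, so they are not independent of each other.

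**Figure D1:**
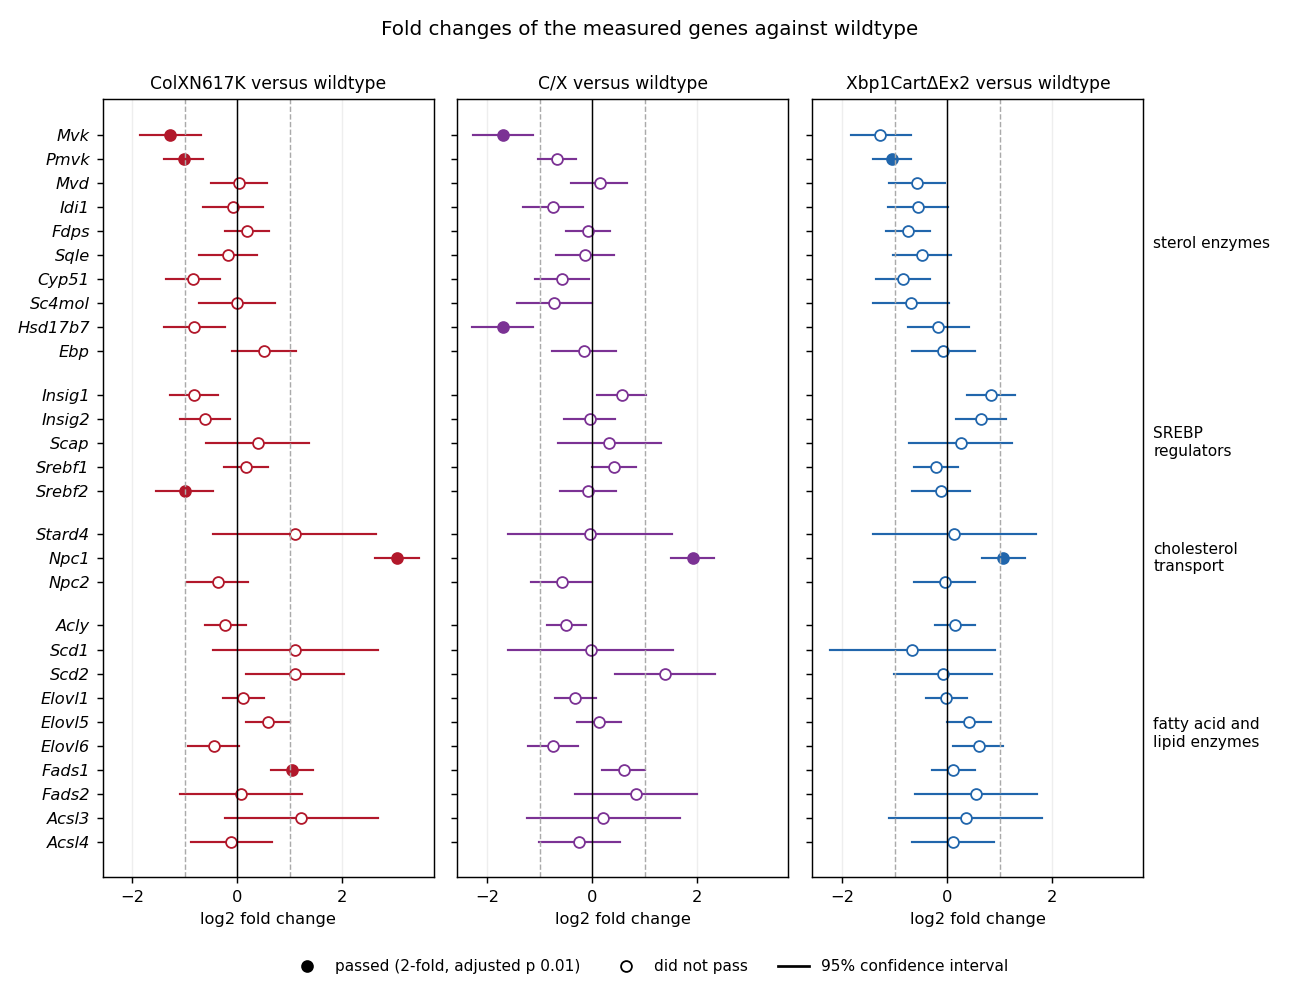
Log2 difference from wildtype for the 28 tested genes, each by its brightest probe, in ColXN617K, C/X and Xbp1CartΔEx2. Points are limma estimates, bars are 95% confidence intervals and filled points passed. Elovl6, Scd2 and Srebf1 were above background on no wildtype array and Insig1 on no ColXN617K array, so those points are not measured sizes. Npc1 lies farthest to the right, at 3.04 for ColXN617K, 1.91 for C/X and 1.07 for Xbp1CartΔEx2, while Mvk lies at −1.28 for ColXN617K, −1.7 for C/X and −1.27 for Xbp1CartΔEx2.

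Among the sterol enzymes, Mvk (mevalonate kinase) had log2 intensities of 7.54, 7.6 and 7.12 in ColXN617K, 7.19, 7.11 and 6.7 in C/X, 7.58, 7.11 and 7.6 in Xbp1CartΔEx2, and 9.15, 8.72 and 8.23 in wildtype. All 9 mutant arrays lay below all 3 wildtype arrays, and 1 array of each mutant was not above background. Mvk fell by 1.28 ± 0.26 in ColXN617K (adjusted p = 0.00342) and by 1.7 ± 0.26 in C/X (adjusted p = 0.000688). In Xbp1CartΔEx2 its difference was −1.27 ± 0.26, of the size seen in ColXN617K, but did not pass (adjusted p = 0.0145). The C/X call held whichever array was left out, whereas the ColXN617K call was lost without ColXN617K replicate 1, wildtype replicate 1 or wildtype replicate 2, with differences of −1.34 to −1.05 and adjusted p of 0.01 to 0.0184. The ColXN617K call also did not hold under cyclic loess (−0.7, adjusted p = 0.0536), without background correction (−0.58, under the 2-fold limit) or under median scaling of the arrays (−0.2, adjusted p = 0.714), and in C/X the difference without background correction was −0.75. C/X differed from Xbp1CartΔEx2 by −0.43 (95% interval −1.0 to 0.14) and from ColXN617K by −0.42 (−0.99 to 0.15).

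Pmvk (phosphomevalonate kinase), the next enzyme, read 9.42, 9.38 and 9.43 in ColXN617K, 9.81, 9.68 and 9.8 in C/X, 9.5, 9.23 and 9.4 in Xbp1CartΔEx2, and 10.36, 10.6 and 10.34 in wildtype. The mutants were again all below wildtype, and the C/X arrays lay above those of both single mutants. Pmvk fell by 1.02 ± 0.17 in ColXN617K (adjusted p = 0.000807) and by 1.05 ± 0.17 in Xbp1CartΔEx2 (adjusted p = 0.00428). In C/X the difference was −0.67 ± 0.17 and did not pass (adjusted p = 0.0124). The effect of the collagen X mutation was thus 0.39 without XBP1 (C/X against Xbp1CartΔEx2, adjusted p = 0.115) and −1.02 with it, and this interaction, 1.41 ± 0.24, passed (adjusted p = 0.00654). The ColXN617K call was lost without wildtype replicate 2, where the difference was −0.94 (adjusted p = 0.00433), and without background correction (−0.72) or under cyclic loess (−0.96). In Xbp1CartΔEx2 it was lost without C/X replicate 1 or without any of the 3 Xbp1CartΔEx2 or 3 wildtype arrays, at adjusted p of 0.0104 to 0.0244. The interaction kept its size (1.32 to 1.47) but passed in only 1 of 12 such fits, without ColXN617K replicate 3, with adjusted p of 0.0109 to 0.0252 in the others.

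Over all genes, the interaction was positive and past the threshold for 0.694% and negative for 0.785%, and among the 28 members for 1 gene each way, Pmvk and Npc1.

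Hsd17b7 read 10.17, 10.08 and 9.92 in ColXN617K, 8.9, 9.37 and 9.25 in C/X, 11.07, 10.05 and 11 in Xbp1CartΔEx2, and 10.75, 11.11 and 10.77 in wildtype. The C/X arrays were below every other array, and Xbp1CartΔEx2 overlapped wildtype. Hsd17b7 fell by 1.7 ± 0.27 in C/X against wildtype (adjusted p = 0.000732) and by 1.53 ± 0.27 in C/X against Xbp1CartΔEx2 (adjusted p = 0.00119). Both calls held whichever array was left out. Under median scaling of the arrays they did not, at −1.19 against wildtype (adjusted p = 0.188) and −1.54 against Xbp1CartΔEx2 (adjusted p = 0.107). Nor did they hold with the replicate number of the sample descriptions as a block. The differences of −0.82 ± 0.27 for ColXN617K against wildtype (adjusted p = 0.0366) and −0.89 ± 0.27 for C/X against ColXN617K (adjusted p = 0.043) did not pass. Xbp1CartΔEx2 differed from wildtype by −0.17 (95% interval −0.75 to 0.41).

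**Figure D2:**
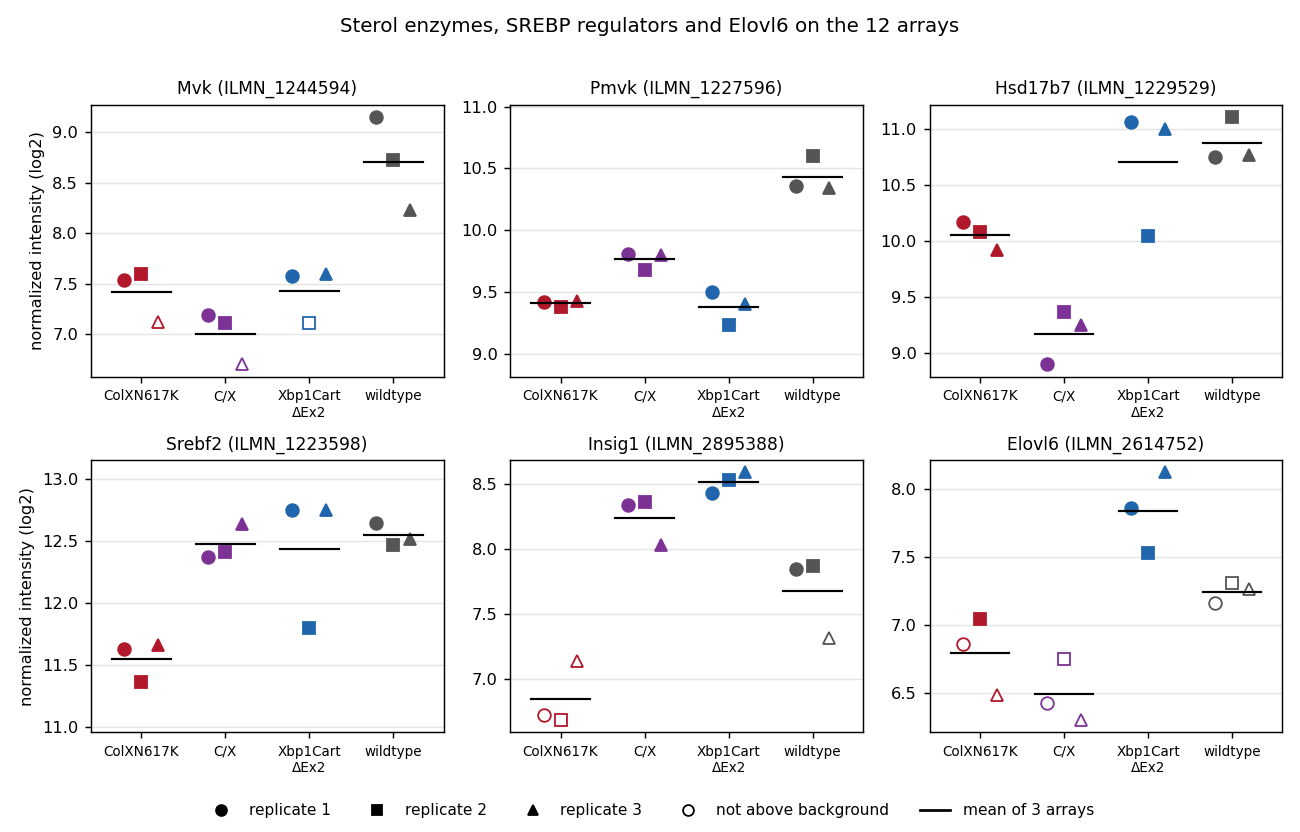
Log2 normalized intensity of Mvk, Pmvk, Hsd17b7, Srebf2, Insig1 and Elovl6 on each of the 12 arrays, by genotype, with circles, squares and triangles for replicates 1, 2 and 3, hollow markers for arrays not above background and a line at the mean of 3 arrays. Mvk and Pmvk lie below wildtype in all 3 mutants, Hsd17b7 is lowest in C/X, and Srebf2 and Insig1 are lowest in ColXN617K.

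The other 7 sterol enzymes did not pass in any comparison. Cyp51, the lanosterol demethylase, came nearest, with differences from wildtype of −0.84 ± 0.24 in ColXN617K (adjusted p = 0.018), −0.57 in C/X (0.0952) and −0.85 in Xbp1CartΔEx2 (0.0497), and with all mutant arrays below wildtype. Fdps, which makes farnesyl diphosphate, was by its brighter probe at 0.18 for ColXN617K, −0.08 for C/X and −0.74 for Xbp1CartΔEx2 (adjusted p = 0.0387). Its other probe went the other way in all 3, at −0.76 for ColXN617K, 1.21 for C/X and 1.19 for Xbp1CartΔEx2, and did not pass. That probe read 9.23, 9.0 and 6.97 in ColXN617K, so replicate 3 lay far below the rest. Mvd, the last enzyme of the mevalonate pathway, was at 0.03 for ColXN617K, 0.14 for C/X and −0.57 for Xbp1CartΔEx2. The isomerase Idi1 was at −0.09 for ColXN617K, −0.75 for C/X and −0.55 for Xbp1CartΔEx2. Squalene epoxidase (Sqle), Sc4mol (the methylsterol oxidase now named Msmo1) and the isomerase Ebp lay between −0.73 and 0.5 in these comparisons.

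As a group the 10 sterol enzymes were below wildtype in Xbp1CartΔEx2 in 10 of 10 cases (median −0.63, with 1 past the threshold), and in C/X in 9 of 10 (median −0.62, with 2). In ColXN617K the median was −0.13, with 7 of 10 negative and 2 past the threshold. Of all 7642 genes, 3835 were negative in Xbp1CartΔEx2, 4000 in C/X and 3969 in ColXN617K. The shares past the threshold as lower were 0.576%, 5.68% and 7.58%. These counts use the brightest probe, and the other Fdps probe was above wildtype in Xbp1CartΔEx2 and C/X. The Xbp1CartΔEx2 count was 9 under cyclic loess and 7 under median scaling of the arrays, under which the median difference of all tested probes was 0.77 for ColXN617K, 0.4 for C/X and 0.34 for Xbp1CartΔEx2. Under median scaling the sterol medians were 0.8 for ColXN617K, −0.07 for C/X and −0.1 for Xbp1CartΔEx2, so the first changed sign. Relative to all probes they were 0.03 for ColXN617K, −0.47 for C/X and −0.44 for Xbp1CartΔEx2. Of the calls made on members here, median scaling left those of the brighter Npc1 probe in ColXN617K and C/X and of the dimmer Fads2 probe in ColXN617K. On single arrays the group's median difference from the wildtype mean was −0.28, −0.28 and −0.09 in ColXN617K, −0.62, −0.48 and −0.58 in C/X, −0.37, −0.95 and −0.6 in Xbp1CartΔEx2 and −0.08, 0.2 and −0.1 in wildtype. The C/X and Xbp1CartΔEx2 arrays did not overlap with wildtype, and the ColXN617K arrays did.

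**Figure D3:**
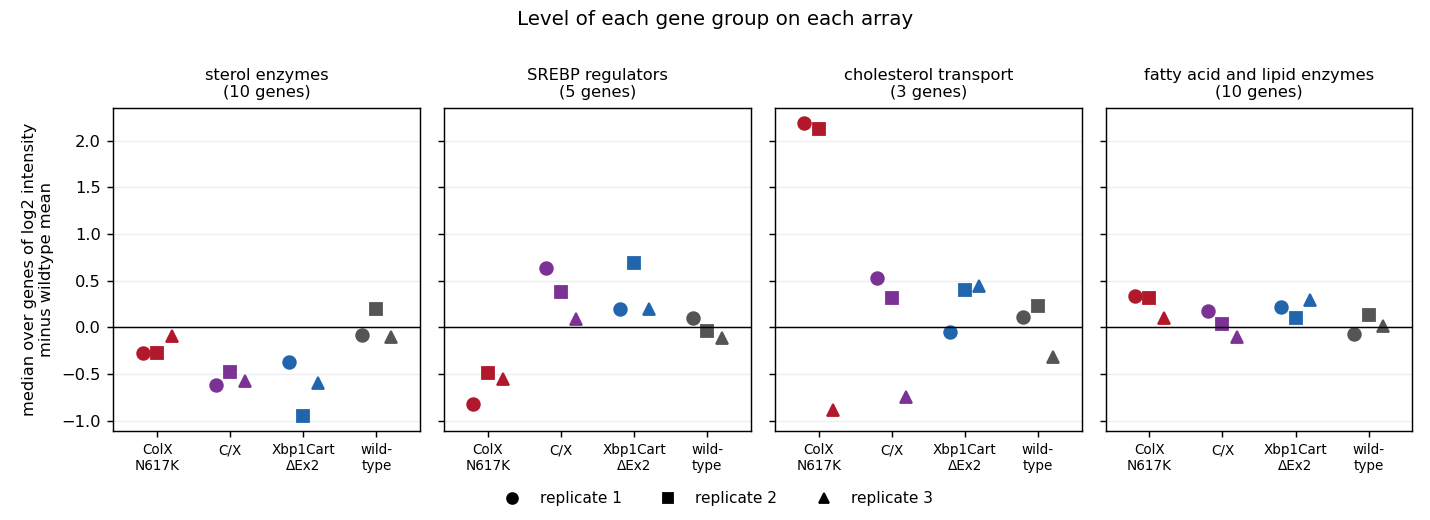
Median over the genes of each list of the log2 intensity minus the wildtype mean, on each of the 12 arrays, for the sterol enzymes, SREBP regulators, cholesterol transport genes and fatty acid enzymes. Sterol enzymes lie between −0.95 and −0.37 in C/X and Xbp1CartΔEx2, regulators between −0.82 and −0.49 in ColXN617K, and fatty acid enzymes between −0.1 and 0.33 in all mutants.

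Among the SREBP regulators, Srebf2 read 11.63, 11.36 and 11.66 in ColXN617K, 12.37, 12.41 and 12.64 in C/X, 12.75, 11.8 and 12.75 in Xbp1CartΔEx2, and 12.65, 12.47 and 12.52 in wildtype. Every ColXN617K array lay below every other array, and C/X overlapped wildtype. Srebf2 fell by 1.0 ± 0.25 in ColXN617K against wildtype, at the edge of the threshold (adjusted p = 0.00984). The call was lost in 10 of the 12 fits that left out 1 array, all but those without ColXN617K replicate 3 or Xbp1CartΔEx2 replicate 2, with differences of −1.04 to −0.91 and adjusted p of 0.0101 to 0.041, and without background correction (−0.92). C/X differed from wildtype by −0.08 (95% interval −0.62 to 0.46) and Xbp1CartΔEx2 by −0.12 (−0.66 to 0.43). C/X was above ColXN617K by 0.92 ± 0.25 (adjusted p = 0.0268), and the interaction of 1.04 ± 0.35 did not pass (adjusted p = 0.0935).

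Insig1, which retains SCAP in the endoplasmic reticulum and is itself an SREBP target, read 6.73, 6.69 and 7.14 in ColXN617K, 8.34, 8.36 and 8.03 in C/X, 8.43, 8.53 and 8.59 in Xbp1CartΔEx2, and 7.85, 7.87 and 7.32 in wildtype by its brighter probe. It was not above background on any ColXN617K array, and these arrays were below all others. Insig1 was at least 2.07-fold higher in C/X than in ColXN617K, with a fitted difference of 1.39 ± 0.21 (adjusted p = 0.00162). The bound sets the C/X mean against the lowest signal above background on each ColXN617K array, or the probe's own signal there where that was higher. The call was lost without C/X replicate 1, at 1.34 (adjusted p = 0.0104), and without background correction the difference was 0.59, under the 2-fold limit. Against wildtype, the differences of −0.83 ± 0.21 in ColXN617K (adjusted p = 0.0116), 0.56 in C/X (0.0717) and 0.83 in Xbp1CartΔEx2 (0.0367) did not pass. The other Insig1 probe was dim, above background on 5 arrays, and read 7.15, 7.4 and 7.27 in ColXN617K, 7.47, 7.45 and 7.61 in C/X, 7.5, 6.98 and 7.21 in Xbp1CartΔEx2 and 6.71, 6.89 and 7.25 in wildtype. It gave 0.24 for C/X against ColXN617K (adjusted p = 0.503), so the probes did not share the difference.

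Of the members, 1 was higher (Insig1) and 1 lower (Npc1) in C/X against ColXN617K, beside 2.88% higher and 2.04% lower among all genes. In C/X against Xbp1CartΔEx2, none of the 28 passed as higher (7 had an unadjusted p under 0.05 in limma, beside 1424 of the 7642 genes) and 2 were lower, Hsd17b7 and Elovl6, beside 6.01% higher and 8.53% lower among all genes. Elovl6 was let into the comparisons by its Xbp1CartΔEx2 arrays, so its call there is not independent of the filter.

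Insig2, the paralog of Insig1, read 8.94, 9.27 and 9.21 in ColXN617K, 9.57, 9.82 and 9.74 in C/X, 10.26, 10.58 and 10.4 in Xbp1CartΔEx2, and 9.4, 9.7 and 10.18 in wildtype by its brighter probe. Its arrays were highest in Xbp1CartΔEx2 and all above wildtype there, with a difference of 0.65 that did not pass (adjusted p = 0.0982). C/X was 0.7 below Xbp1CartΔEx2 (adjusted p = 0.0334), which did not pass either. The second Insig2 probe read 9.22, 9.17 and 8.7 in ColXN617K, 9.23, 9.21 and 9.16 in C/X, 10.05, 9.85 and 9.77 in Xbp1CartΔEx2, and 9.61, 9.17 and 9.44 in wildtype, again highest in Xbp1CartΔEx2.

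Scap, the sterol sensor that escorts SREBPs, read 8.22, 7.97 and 6.81 in ColXN617K, 7.95, 8.24 and 6.62 in C/X, 7.26, 7.97 and 7.41 in Xbp1CartΔEx2, and 7.75, 7.24 and 6.86 in wildtype. The groups overlapped, with differences from wildtype of 0.39 (ColXN617K), 0.32 (C/X) and 0.26 (Xbp1CartΔEx2) that did not pass. The dimmer Scap probe read 6.83, 7.14 and 7.51 in ColXN617K, 7.65, 7.69 and 7.88 in C/X, 7.49, 7.12 and 7.6 in Xbp1CartΔEx2, and 7.11, 7.46 and 7.31 in wildtype. Here C/X was above every wildtype and ColXN617K array, and no difference passed. Srebf1 read 6.95, 6.98 and 6.92 in ColXN617K, 7.42, 7.17 and 7.01 in C/X, 6.42, 6.63 and 6.68 in Xbp1CartΔEx2, and 6.61, 7.08 and 6.69 in wildtype. It was above background on 1 ColXN617K and 2 C/X arrays and on none of the Xbp1CartΔEx2 or wildtype arrays, so its level there is only bounded.

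Over the 5 regulators the median difference from wildtype was −0.62 in ColXN617K (1 of 5 past the threshold), 0.32 in C/X and 0.26 in Xbp1CartΔEx2 (0 in either, while 1 in C/X and 2 in Xbp1CartΔEx2 were at an unadjusted p under 0.05 in limma). Among all genes, 7.58% passed as lower in ColXN617K. The ColXN617K median of the regulators changed sign, to 0.32, under median scaling, and was −0.45 relative to all probes. The C/X and Xbp1CartΔEx2 medians are the values of Scap, each with an SE of 0.45. No test was made of these medians.

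Of the cholesterol transport genes, Npc1 by its brighter probe read 12.64, 12.75 and 12.88 in ColXN617K, 11.61, 11.61 and 11.64 in C/X, 10.89, 10.67 and 10.8 in Xbp1CartΔEx2, and 9.81, 9.94 and 9.39 in wildtype. The 4 genotypes did not overlap. Npc1 rose by 3.04 ± 0.19 in ColXN617K (adjusted p = 8.92e-07), by 1.91 ± 0.19 in C/X (2.75e-05) and by 1.07 ± 0.19 in Xbp1CartΔEx2 (0.00709). C/X was lower than ColXN617K by 1.13 ± 0.19 and passed (adjusted p = 0.0025), and was higher than Xbp1CartΔEx2 by 0.84 ± 0.19, short of the 2-fold limit (adjusted p = 0.00601). The interaction of −2.2 ± 0.27 passed (adjusted p = 0.00143). The ColXN617K, C/X and interaction calls held whichever array was left out. The Xbp1CartΔEx2 call held only without ColXN617K replicate 3 or C/X replicate 3, and otherwise was 0.91 to 1.18 at adjusted p of 0.0113 to 0.0317, and without background correction it was 0.8. The call for C/X against ColXN617K was lost without ColXN617K replicate 2, C/X replicate 1 or C/X replicate 2 (−1.14 to −1.13, adjusted p of 0.0105 to 0.0137).

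The other Npc1 probe went the other way. It read 7.63, 7.41 and 8.06 in ColXN617K, 7.62, 7.4 and 7.24 in C/X, 8.05, 7.9 and 8.12 in Xbp1CartΔEx2, and 8.45, 8.24 and 8.85 in wildtype, so that every mutant array was below every wildtype array. It fell by 1.09 ± 0.23 in C/X (adjusted p = 0.00408), a call lost without C/X replicate 2, C/X replicate 3, wildtype replicate 1 or wildtype replicate 3 (−1.13 to −0.92, adjusted p of 0.012 to 0.0217). Its differences of −0.81 in ColXN617K (adjusted p = 0.0173) and −0.49 in Xbp1CartΔEx2 (0.221) did not pass. Where either probe lies in the transcript is not given in the files, so the direction for Npc1 rests on the choice of probe.

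**Figure D4:**
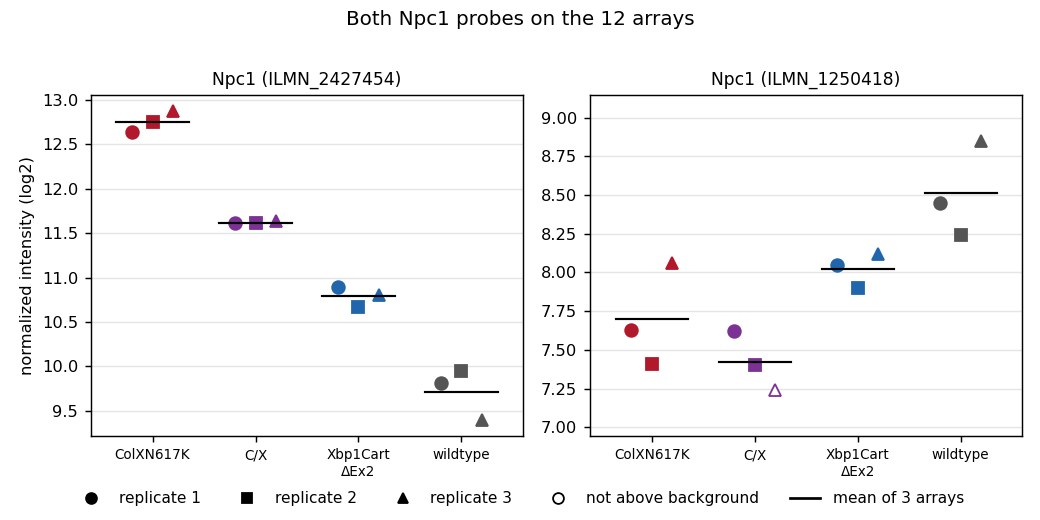
Log2 normalized intensity of the 2 Npc1 probes on each of the 12 arrays, by genotype, with symbols as in the plot of Mvk to Elovl6. The brighter probe steps down in the order ColXN617K, C/X, Xbp1CartΔEx2 and wildtype, with group means of 12.76, 11.62, 10.79 and 9.72, and the dimmer probe has its highest mean, 8.51, in wildtype.

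Stard4, which carries cholesterol between membranes, read 9.72, 9.66 and 6.48 in ColXN617K, 8.06, 7.84 and 6.56 in C/X, 7.48, 7.58 and 7.97 in Xbp1CartΔEx2, and 7.96, 7.76 and 6.87 in wildtype. ColXN617K replicate 3 was the lowest array of all and its 2 companions the highest, and the difference of 1.09 ± 0.72 from wildtype did not pass (adjusted p = 0.262). With both the ColXN617K and the C/X replicate 3 arrays left out it was 2.16 and passed (adjusted p = 0.000146). That call is not independent of leaving out the arrays on which Stard4 lay low. Npc2, the soluble partner of NPC1, ranged from 8.89 to 10.17 over the 12 arrays and did not pass in any comparison. Over the 3 transport genes the median difference from wildtype was 1.09 for ColXN617K, −0.04 for C/X (0.52 under median scaling) and 0.14 for Xbp1CartΔEx2.

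Among the fatty acid enzymes, Fads1 read 12.63, 12.66 and 12.13 in ColXN617K, 11.95, 12.13 and 11.99 in C/X, 11.49, 11.56 and 11.59 in Xbp1CartΔEx2, and 11.37, 11.47 and 11.43 in wildtype. The ColXN617K and C/X arrays were all above wildtype. Fads1 rose by 1.05 ± 0.19 in ColXN617K (adjusted p = 0.00131). Its differences of 0.6 in C/X (adjusted p = 0.0335) and 0.12 in Xbp1CartΔEx2 (0.746) did not pass. Without ColXN617K replicate 1 or 2 the difference was 0.97 or 0.96, under the 2-fold limit (adjusted p of 0.00867 and 0.0076), and without background correction it was 0.96.

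Fads2, the delta-6 desaturase, read 8.74, 8.64 and 9.5 in ColXN617K, 8.33, 8.37 and 8.52 in C/X, 7.52, 7.64 and 7.54 in Xbp1CartΔEx2, and 8.18, 7.84 and 7.27 in wildtype by its dimmer probe. Both collagen X mutants were above wildtype on every array. This probe rose by 1.2 ± 0.27 in ColXN617K (adjusted p = 0.00555), a call lost without ColXN617K replicate 1, ColXN617K replicate 3, Xbp1CartΔEx2 replicate 3, wildtype replicate 2 or wildtype replicate 3 (0.93 to 1.31, adjusted p of 0.0087 to 0.0267) or without background correction (0.58). The brighter Fads2 probe, which stands for the gene in the counts, gave 0.07 (95% interval −1.1 to 1.23).

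Elovl6, which lengthens saturated fatty acids, read 6.86, 7.04 and 6.48 in ColXN617K, 6.42, 6.75 and 6.3 in C/X, 7.86, 7.53 and 8.12 in Xbp1CartΔEx2, and 7.16, 7.31 and 7.26 in wildtype. It was above background on all 3 Xbp1CartΔEx2 arrays, on 1 ColXN617K array and on none of the C/X or wildtype arrays, so it entered the comparisons through the genotype in which it was highest. It was at least 1.46-fold lower in C/X than in Xbp1CartΔEx2, with a fitted difference of −1.35 ± 0.22 that passed (adjusted p = 0.00079). The Xbp1CartΔEx2 arrays that let the gene in also carry this difference, so the call is not independent of the filter. It held whichever array was left out, but the difference was −0.59, under the 2-fold limit, without background correction. In Xbp1CartΔEx2 it was at least 1.15-fold higher than in wildtype and did not pass (adjusted p = 0.127), and no size is given for C/X against wildtype, where neither genotype was above background.

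The stearoyl-CoA desaturases, which put the first double bond into saturated fatty acids, did not pass in any comparison. Scd1 read 10.96, 11.34 and 8.98 in ColXN617K, 10.15, 10.17 and 7.57 in C/X, 9.23, 8.34 and 8.43 in Xbp1CartΔEx2, and 9.39, 10.01 and 8.58 in wildtype, with a difference of 1.1 ± 0.72 in ColXN617K (adjusted p = 0.261). Scd2 read 7.6, 7.19 and 6.07 in ColXN617K, 7.16, 8.18 and 6.39 in C/X, 5.8, 5.8 and 5.72 in Xbp1CartΔEx2, and 5.7, 6.16 and 5.7 in wildtype. For both genes the replicate 3 arrays of ColXN617K and C/X lay below the other 2 arrays of their genotype. Scd2 was above background on replicates 1 and 2 of both collagen X mutants and on no Xbp1CartΔEx2 or wildtype array. It thus entered the comparisons through the genotypes in which it was high, and no size is given for its differences from the other genotypes, which did not pass (adjusted p = 0.0734 for ColXN617K and 0.0343 for C/X against wildtype, and 0.0249 for C/X against Xbp1CartΔEx2). Acsl3, which activates fatty acids, showed the same split, at 9.51, 9.81 and 7.58 in ColXN617K and 8.37, 8.85 and 6.65 in C/X, against 8.22, 7.87 and 8.19 in Xbp1CartΔEx2 and 6.56, 8.58 and 8.1 in wildtype.

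**Figure D5:**
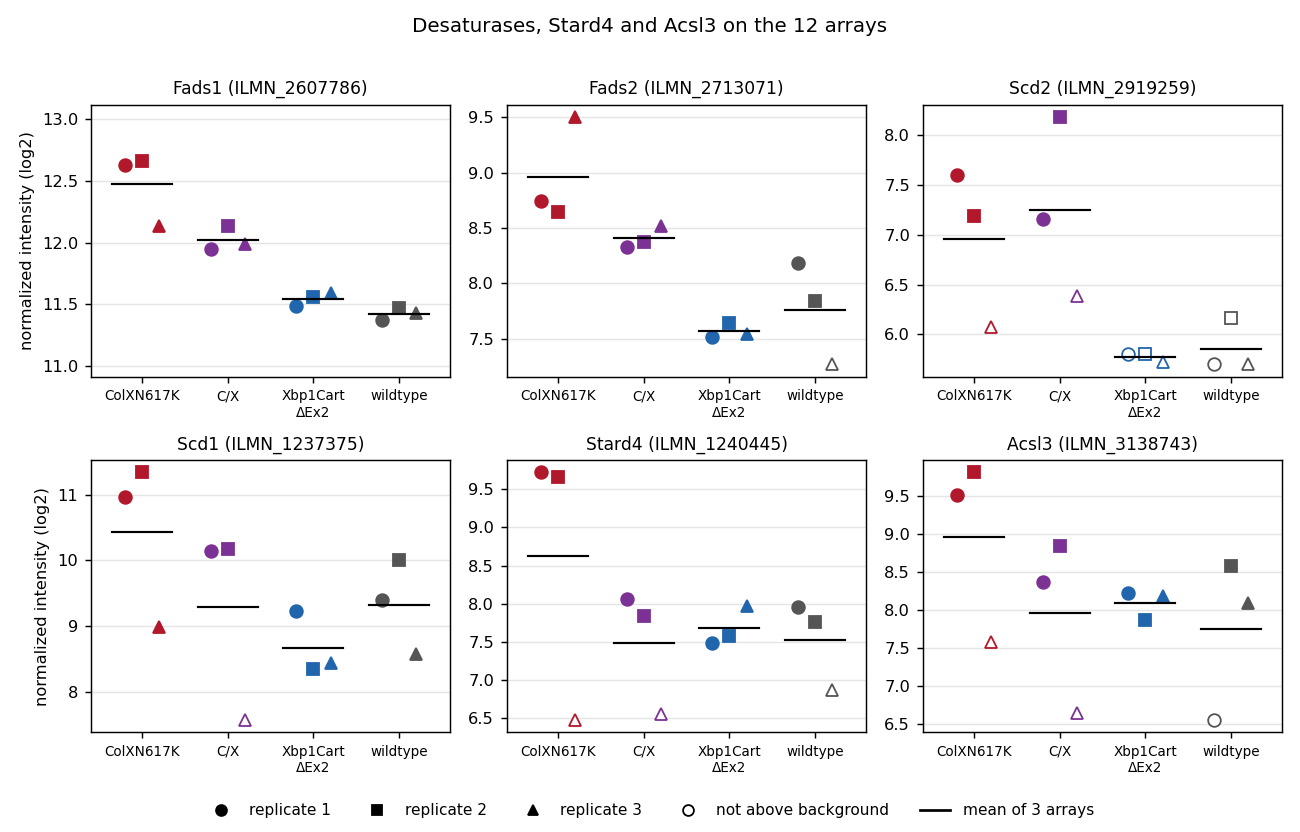
Log2 normalized intensity of Fads1, Fads2 (dimmer probe), Scd2, Scd1, Stard4 and Acsl3 on each of the 12 arrays, by genotype, with symbols as in the plot of Mvk to Elovl6. For Scd1, Scd2, Stard4 and Acsl3 the triangles of ColXN617K and C/X (replicate 3) lie below the circles and squares of the same genotype, by the values given above.

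Without both of those arrays, 9 members passed in ColXN617K against wildtype (6 higher and 3 lower, beside 14.8% and 12.3% of all genes), the added ones being Acsl3 (1.91, adjusted p = 0.00491), Scd1 (1.82, 0.00207), Stard4 and Scd2. Scd2 also passed in C/X against wildtype, beside 10.6% of all genes higher and 8.83% lower. In C/X against Xbp1CartΔEx2, Scd1 (1.5, adjusted p = 0.0083) and Scd2 passed, which brought the members there to 2 higher and 2 lower, beside 9.2% higher and 10.2% lower among all genes. The arrays left out were also those on which Acsl3, Scd1, Stard4 and Scd2 lay low, so the added calls are not independent of that choice. The Scd2 calls set arrays above background against genotypes with none, so they carry no size. Scd2 entered the comparisons only through arrays that were kept, so its calls, counted above, are not independent of the filter either. With 2 arrays left in those genotypes, these values lean on the spread shared over all groups.

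The remaining fatty acid enzymes did not pass in any comparison. ATP citrate lyase (Acly), which makes cytosolic acetyl-CoA, differed from wildtype by −0.23, −0.49 and 0.15 in ColXN617K, C/X and Xbp1CartΔEx2, and by −0.64 in C/X against Xbp1CartΔEx2 (adjusted p = 0.0172). Elovl5 was 0.58 in ColXN617K (adjusted p = 0.0383), and Elovl1 (by its brighter probe) and Acsl4 lay between −0.32 and 0.11 in the 3 mutants. The other Elovl1 probe was at −0.23 for ColXN617K, −0.43 for C/X and −0.4 for Xbp1CartΔEx2. Over the 10 fatty acid enzymes the median difference from wildtype was 0.35 in ColXN617K with 7 of 10 positive and 1 past the threshold, and 0.05 in C/X and 0.14 in Xbp1CartΔEx2 with none past it (5 and 7 positive). At an unadjusted p under 0.05 in limma, 2 were higher and 2 lower in C/X and 1 was higher in Xbp1CartΔEx2. Of all 7642 genes, 1481 were higher and 1394 lower in C/X at that p, and 1014 higher in Xbp1CartΔEx2. The medians and counts of this list include Elovl6 and Scd2, which were above background on no wildtype array. Both were let in by genotypes in which they were high, so these medians and counts are not independent of the filter. On single arrays the median was 0.33, 0.31 and 0.1 in ColXN617K, 0.17, 0.04 and −0.1 in C/X, 0.22, 0.1 and 0.29 in Xbp1CartΔEx2 and −0.07, 0.13 and 0.01 in wildtype, so each mutant overlapped wildtype. Beside those of the sterol enzymes given above, the fatty acid medians were higher in all 3 mutants, as they were under median scaling, at 1.23 for ColXN617K, 0.69 for C/X and 0.46 for Xbp1CartΔEx2. No test of that difference between the lists was made.

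A wider list of 55 pathway symbols, with 27 genes tested, gave 3 higher and 1 lower in ColXN617K (beside 7.45% and 7.58% of all genes), 4 higher in C/X (beside 6.29%) and none in Xbp1CartΔEx2 (beside 1.23% higher and 0.576% lower) against wildtype. Its median was 0.23 for ColXN617K, 0.15 for C/X and 0.05 for Xbp1CartΔEx2. In Xbp1CartΔEx2, 4 were higher and 3 lower at an unadjusted p under 0.05 in limma, beside 1014 higher and 787 lower of all 7642 genes. Mbtps1, the site-1 protease that makes the first SREBP cut, read 7.39, 7.34 and 7.37 in ColXN617K, 8.75, 9.23 and 9.47 in C/X, 8.44, 8.29 and 8.09 in Xbp1CartΔEx2, and 8.73, 8.65 and 8.71 in wildtype. It was lowest in ColXN617K, where it fell by 1.33 ± 0.2 (adjusted p = 0.000488), and C/X was 1.78 ± 0.2 above ColXN617K (0.000302). Only 2 of the 3 ColXN617K arrays were above background for it. Its interaction was 2.2 ± 0.29 (adjusted p = 0.00174). Like Srebf2, Mbtps1 was lower in ColXN617K than on every other array, while in C/X it was above all of them.

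The lipoprotein receptor Vldlr rose by 2.32 ± 0.3 in ColXN617K (adjusted p = 0.000143) and by 1.96 ± 0.3 in C/X (0.000612), and the FADS paralog Fads3 by 2.42 ± 0.31 in ColXN617K (0.000139) and by 2.83 ± 0.31 in C/X (5.95e-05). G0s2, an inhibitor of the triglyceride lipase ATGL, read 10.6, 10.49 and 10.55 in ColXN617K, 11.67, 11.3 and 12.56 in C/X, 7.87, 7.59 and 7.3 in Xbp1CartΔEx2, and 6.32, 8.02 and 6.07 in wildtype. Both collagen X mutants lay above both other genotypes, by 3.74 ± 0.45 in ColXN617K (adjusted p = 8.86e-05) and 5.04 ± 0.45 in C/X (1.25e-05) against wildtype. G0s2 and Fads3 were each above background on 1 of 3 wildtype arrays, so the sizes of their differences from wildtype lean on background signals. C/X was above Xbp1CartΔEx2 by 4.26 ± 0.45 for G0s2 (adjusted p = 4.03e-05), by 2.59 ± 0.31 for Fads3 (9.56e-05) and by 1.52 ± 0.25 for Dgat2, which completes triglyceride synthesis (0.000816). Acadl, a mitochondrial acyl-CoA dehydrogenase, rose by 1.29 ± 0.3 in C/X against wildtype (adjusted p = 0.00777). The calls of this wider list were not rerun with arrays left out or under other processing.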

How the data were processed

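The authors amplified RNA of microdissected hypertrophic zones for 12 arrays, and deposited for each of 45281 probes a linear intensity with its detection score. This deposited detection score is a fraction, headed as a p value but high for bright probes, so 1 minus the p value is what it was taken to hold. The authors also deposited normalized log2 values for 11338 probes, which served only as a check, with a largest difference of 0.0339. Background correction and quantile normalization of the intensities used neqc (limma 3.58.1, R 4.3.3, offset 16), after the published methods. The 12023 probes whose score exceeded 0.95 on 3 or more arrays were tested. The removal of probes classed as bad or unmatched was not repeated. Genes were named by the platform annotation and counted by their brightest tested probe.

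A limma model with a mean per genotype, fitted to all 12 arrays (8 residual and 4.28 prior degrees of freedom), gave 6 contrasts, with Benjamini-Hochberg adjustment over all tested probes. The interaction is C/X minus Xbp1CartΔEx2, minus the difference of ColXN617K from wildtype. The fit was tested on simulated data. Array-level values are given for members that passed in a contrast, for the SREBP regulators, and for Scd1, Scd2, Stard4 and Acsl3, chosen after their values were seen. Members and lists were chosen with earlier results of these data known. Alternatives covered background correction, offset, scaling, filters, array weights, samples fitted, replicate blocks, probe choice, looser limits for passing and arrays left out. The number of arrays limits precision. Figures were drawn with matplotlib 3.10.9 in Python 3.11.15.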

Additional observations from a re-analysis of the deposited data

Results flagged for a closer look

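The interaction term in limma, the effect of the collagen X mutation without against with XBP1, passed for 2 of the 28 genes. Over all 7642 genes it passed as positive for 0.694% and as negative for 0.785%. For Pmvk the interaction was 1.41, from a difference of 0.39 between C/X and Xbp1CartΔEx2 and of −1.02 between ColXN617K and wildtype. It passed in only 1 of the 12 fits that left out 1 array. For the brighter Npc1 probe the interaction was −2.20, from differences of 0.84 and 3.04, while the dimmer Npc1 probe gave 0.21 (adjusted p = 0.717). With the mean of the gene's probes the Npc1 interaction did not pass.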

How the results depend on the processing

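The counts of members that passed were 5, 3, 2, 2, 2 and 2 in ColXN617K, C/X and Xbp1CartΔEx2 against wildtype, C/X against Xbp1CartΔEx2, C/X against ColXN617K, and the interaction. Over 27 alternatives and 210 differences (5575 recomputed values), none of the 18 that passed changed sign. Only those 18 could lose a call, and 125 of their recomputed values did, while 39 values of the others gained one. In ColXN617K against wildtype, the call was lost in 0 of 27 alternatives for the brighter Npc1 probe and in 17 of 27 for Srebf2. Among the 27, an adjusted p of 0.05 and no fold minimum only loosened a limit on the main fit. No call could be lost and no sign could change in them, and some of the 39 gains came from the looser limit alone. Median scaling gave 1, 1, 0, 0, 0 and 0, with 6, 5, 8 and 7 members at an unadjusted p under 0.05 in limma for the counts of 0. Of all tested probes 796, 305, 8, 401, 17 and 1 then passed, beside 1740, 1410, 212, 1643, 633 and 205 in the main fit. Under this scaling the median over all probes was 0.77, 0.40, 0.34, 0.06, −0.30 and −0.73. The cause was not tested, here or for the other settings. No background correction gave 1 in ColXN617K, 0 in Xbp1CartΔEx2 (10 at an unadjusted p under 0.05 in limma) and 1 in each of the last 3. Cyclic loess gave 3 in ColXN617K and 1 in both Xbp1CartΔEx2 and the interaction. An offset of 50 gave 3, and no filter 3, in ColXN617K. A detection p under 0.01 gave 1 in C/X against Xbp1CartΔEx2. Fitting only the genotypes compared gave 1 in ColXN617K, 1 in Xbp1CartΔEx2 and 0 in C/X against ColXN617K (6 at an unadjusted p under 0.05 in limma), and the mean of a gene's probes gave 1, 0 and 1 in Xbp1CartΔEx2, C/X against ColXN617K (12 at that p) and the interaction. Array weights gave 5 in the interaction, where 2058 of all tested probes passed. Leaving out 1 array gave 2 to 7, 3 to 4, 0 to 3, 2 to 3, 0 to 3 and 1 to 2 in the order above. Leaving out ColXN617K replicate 3 and C/X replicate 3 together gave 9 in ColXN617K and 4 in C/X against Xbp1CartΔEx2. These counts include added calls that are not independent of that choice of arrays.

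Same-numbered arrays did not deviate together throughout. Correlations were over 0.1 in 7 of 18 same-numbered pairs by title (10 of 36 other pairs) and 6 of 14 by description (11 of 40). By title, ColXN617K and C/X arrays of the same number correlated at 0.37, 0.6 and 0.66 for replicates 1, 2 and 3. ColXN617K replicate 1 with C/X replicate 2, numbered differently, gave 0.51. The numbers were not taken as pairs. With the title number as a replicate block the counts were 5, 3, 1, 3, 2 and 1, and with the description number as a block 2, 2, 0, 1, 2 and 1 (8 members at an unadjusted p under 0.05 in limma for the 0). A block for the slide was not run, since the files used here give no slide. Signals at background only bound Insig1, Elovl6, Srebf1, Scd2 and the dimmer Scap probe in some groups. They also enter the wildtype means of G0s2 and Fads3 and the ColXN617K mean of Mbtps1.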
